A study of Mus musculus with 6 samples.

Results

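The MHC class I presentation genes described here are 10 genes chosen by their symbols: the heavy chains H2-K1 and H2-D1, the light chain B2m, the peptide transporter subunits Tap1 and Tap2, the loading factor Tapbp, the immunoproteasome subunits Psmb8, Psmb9 and Psmb10, and the transactivator Nlrc5. All 10 were among the 24453 symbols counted, and all 10 passed the filter on low counts that left 14700 genes tested. RNA was sequenced from 3 Eed cKO libraries and 3 Control libraries of mouse epidermal cells at postnatal day 0. The labels give the genotype Eed-/- for the Eed cKO libraries and Control for the others, in cells of newborn back skin sorted for EpCAM, for Sca1 and for a high level of α6-integrin. The sources used here name neither the driver of the deletion, nor the mouse strain, nor the animals behind each library, so p-values measure only the spread between libraries, which may be technical.

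Class I molecules show peptides from inside the cell to CD8 T cells. The proteasome cuts proteins into peptides, the Tap1-Tap2 transporter carries them into the endoplasmic reticulum, and tapasin, encoded by Tapbp, helps to load them on a heavy chain paired with β2-microglobulin. Interferon raises most of these genes, and Nlrc5 is a transcriptional activator of class I genes that acts through a conserved promoter module. Eed belongs to Polycomb repressive complex 2 (PRC2), the enzyme complex that places the repressive H3K27 methylation mark, and PRC2 has been reported to hold class I genes silent in cancer cell lines. The comparison asks whether transcripts of the class I pathway change in epidermal cells when Eed is deleted.

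Of the 10 genes, 7 lie on chromosome 17 between positions 33915899 and 35267499 (GRCm38, GENCODE M21), in the mouse MHC. Within that stretch Psmb9, Tap1, Psmb8 and Tap2 fill 34335 bases, from position 34181987 to 34216321. B2m lies on chromosome 2 (122147686 to 122153083), and Nlrc5 (94434356 to 94527272) and Psmb10 (105935735 to 105938444) lie on chromosome 8. RefSeq promoter sequences (GRCm38.p6) were found for 8 of the 10 genes, all but Tap2 and Nlrc5. The 250 bases before the start are shown for the heavy chain genes H2-K1 (minus strand, chr17:34000348-34000597) and H2-D1 (plus strand, chr17:35262844-35263093), the pair whose transcripts are set against each other below, and for Tap1 (plus strand, chr17:34187306-34187555), whose window shares 225 bases with that of Psmb9 on the other strand. Capitals mark matches on either strand to GGGANTCCC, a κB site of class I promoters, GAANNGAAA, an interferon regulatory factor site, TGACG, the core of a cyclic AMP response element, CCAAT, and TTCNNNGAA, an interferon-gamma activated site. No match shown overlaps another.
H2-K1: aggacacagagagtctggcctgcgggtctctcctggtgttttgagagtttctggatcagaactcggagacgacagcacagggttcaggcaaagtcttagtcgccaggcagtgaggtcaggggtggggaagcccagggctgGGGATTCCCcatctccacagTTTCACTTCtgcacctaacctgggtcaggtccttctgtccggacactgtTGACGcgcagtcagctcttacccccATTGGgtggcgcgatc
H2-D1: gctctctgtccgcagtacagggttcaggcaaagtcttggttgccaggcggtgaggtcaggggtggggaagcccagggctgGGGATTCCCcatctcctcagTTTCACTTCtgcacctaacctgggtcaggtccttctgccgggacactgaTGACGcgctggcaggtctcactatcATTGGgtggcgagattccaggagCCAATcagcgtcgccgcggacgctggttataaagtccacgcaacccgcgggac
Tap1: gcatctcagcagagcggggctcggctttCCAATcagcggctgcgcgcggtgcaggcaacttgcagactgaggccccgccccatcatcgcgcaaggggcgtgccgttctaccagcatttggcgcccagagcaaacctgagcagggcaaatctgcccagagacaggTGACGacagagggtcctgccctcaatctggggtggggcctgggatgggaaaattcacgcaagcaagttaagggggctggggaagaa

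The H2-K1 and H2-D1 promoters held the κB, interferon regulatory factor, TGACG and CCAAT letters in the same order. All 4 stood 60 bases farther from the RefSeq start in H2-D1 than in H2-K1. In GENCODE H2-D1 begins farther upstream, at position 35262730, so its window lies inside that gene span. The offset thus depends on the annotated start. Placed at that offset, the windows were identical at 166 of 190 bases (87.4%). The H2-D1 window held a further CCAAT match at 53 to 49 bases before the start. At the same offset that stretch falls past the start of H2-K1, outside its window, so it was not searched there. Among 32851 mouse promoter windows of 250 bases, GGGANTCCC was found in 0.636%, GAANNGAAA in 6.31%, TGACG in 17.8%, CCAAT in 33.8% and TTCNNNGAA in 7.02%. Of the 8 windows found for the class I genes, 2 held GGGANTCCC and 2 held GAANNGAAA, in each case H2-K1 and H2-D1, 5 held TGACG, 6 held CCAAT and 1, that of Psmb8, held TTCNNNGAA. By their GENCODE starts the windows of Tapbp, Psmb8 and Psmb9 also lie inside their gene spans, and that of Psmb10 does in part. These matches describe letters only.

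Depth was similar in the groups, with totals of 20998149 to 27447679 counts in Eed cKO libraries and 25481306 to 29998531 counts in Control libraries. Values below are library-size-scaled counts (CPM, with TMM factors). The keratins Krt5 and Krt14, which mark basal epidermis, were at 22537 ± 3674 and 4930 ± 1161 CPM in Eed cKO and at 22623 ± 3399 and 5461 ± 732 CPM in Control (SD, n = 3 each). Of the 6 basal epidermis markers none was called, but Trp63 and Col17a1, named after their values were seen, were lower in every Eed cKO library than in any Control library (log2 fold changes -0.37 and -0.37, edgeR adjusted p 0.266 and 0.278). Eed itself was at 37.0, 33.7 and 29.2 CPM in Eed cKO 1, 2 and 3, against 45.1, 41.1 and 53.1 CPM in Control 1, 2 and 3 (log2 fold change -0.48, edgeR adjusted p 0.252). Every Eed cKO library was below every Control library, and the gene was not called. That whole-gene count is a weak check of the deletion, because the labels do not say which exons were removed. Xist, a transcript of female cells, was at 8.55 CPM in Eed cKO 2 and between 5297 and 7757 CPM in the other 5 libraries. In this transcript Eed cKO 2 thus stands apart from the rest. The sex of the animals, and its part in the values of Eed cKO 2, was not tested.

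Across the class I pathway, H2-K1 rose in Eed cKO and the other 9 genes did not pass the test. A gene was called at a Benjamini-Hochberg adjusted p under 0.05 in edgeR's quasi-likelihood test over all 14700 genes. The call of 1 in 10 higher stands beside 3.39% of all tested genes called higher, and the 0 called lower beside 0.816% (4.21% in either direction). DESeq2 and limma-voom likewise called H2-K1 alone, and H2-K1 was the only gene of the 10 with an unadjusted p under 0.05, as had 14.9% of tested genes. Log2 fold changes of the 10 ran from -0.29 to 1.30 with a median of 0.39, against a median of -0.01 over all tested genes, and 8 of the 10 were positive. In 1 of 10 genes every Eed cKO library lay above every Control library, as in 11% of tested genes, and in none did every Eed cKO library lie below, as in 9.22%.

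**Figure D1:**
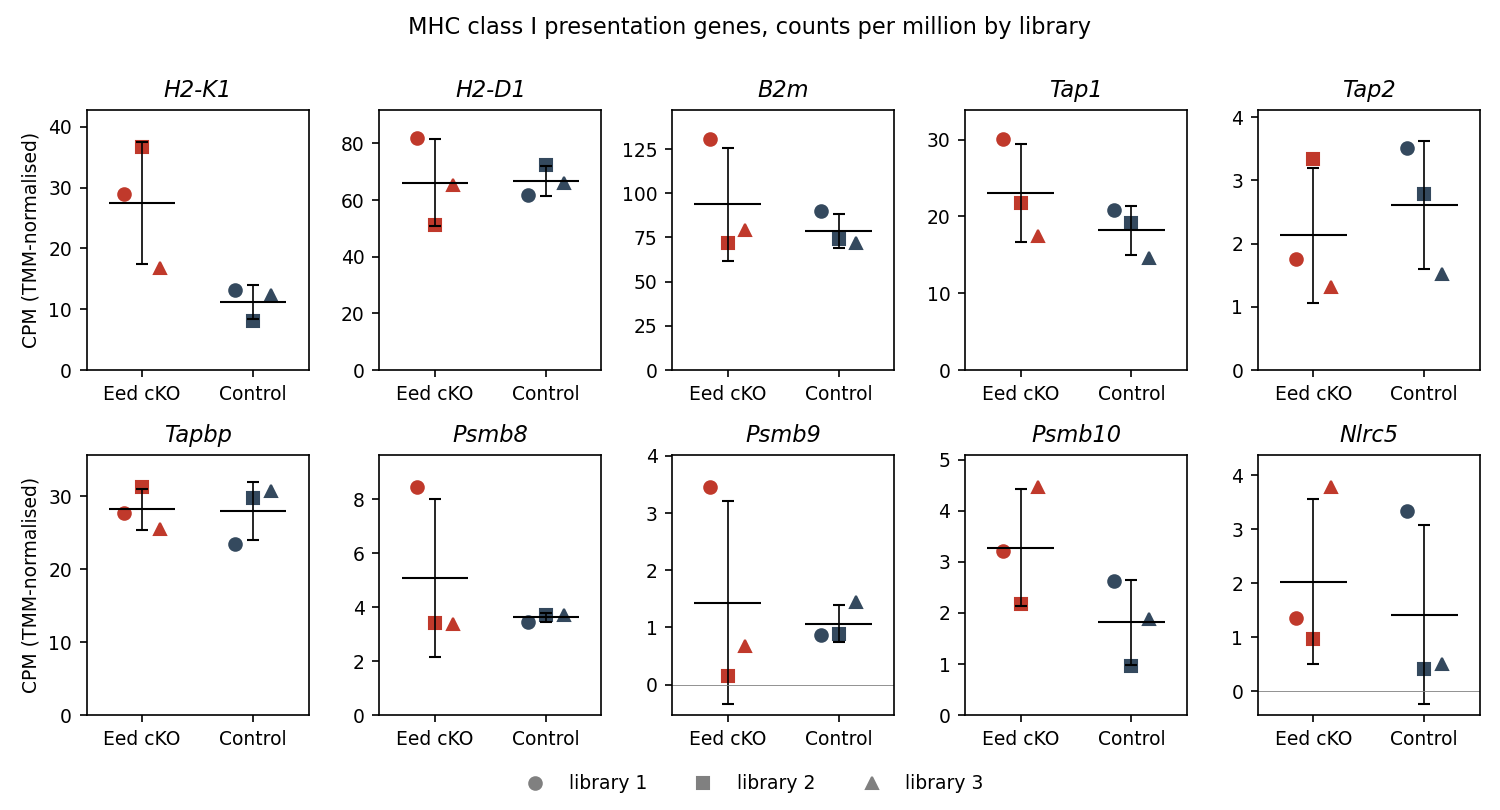
TMM-normalised CPM of each of the 10 genes in 3 Eed cKO libraries (red) and 3 Control libraries (dark blue); symbols give the library number, horizontal lines the mean and error bars the SD. Only in H2-K1 do the groups not overlap, and Psmb8 and Psmb9 are highest in Eed cKO 1.

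H2-K1 (chromosome 17, 33996017 to 34000347) encodes a classical class I heavy chain, the chain that holds the peptide. It was at 28.9, 36.6 and 16.8 CPM in Eed cKO 1, 2 and 3, against 13.2, 7.99 and 12.3 CPM in Control 1, 2 and 3. Every Eed cKO library was above every Control library, with the narrowest gap between Eed cKO 3 and Control 1. The means were 27.5 ± 9.98 CPM in Eed cKO and 11.2 ± 2.81 CPM in Control (SD, n = 3 each), from 348 to 913 counts in Eed cKO libraries and 250 to 354 counts in Control libraries. On the log2 scale the rise was 1.30 ± 0.30 (SE), at an edgeR adjusted p of 0.0254 and with a 95% interval of 1.57-fold to 3.85-fold. The rise stayed positive whichever library was left out, with log2 fold changes of 1.04 to 1.55, but the call was lost without Eed cKO 1 (edgeR adjusted p 0.0585), Eed cKO 2 (0.156), Control 2 (0.0907) or Control 3 (0.0724).

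**Figure D2:**
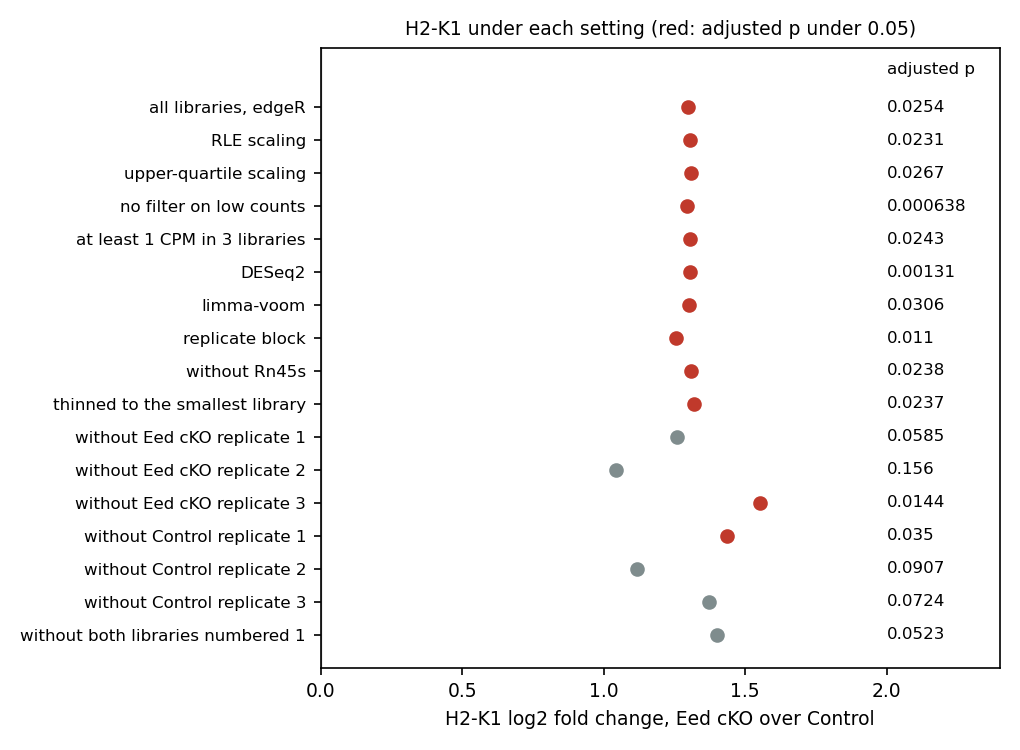
Log2 fold change of H2-K1, Eed cKO over Control, with all libraries and under each other setting, with its adjusted p at the right; red points have an adjusted p under 0.05. The points lie between 1.04 and 1.55, and 5 of the 16 other settings, each with 1 or 2 libraries left out, lose the call.

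H2-D1 (chromosome 17, 35262730 to 35267499), the other classical heavy chain gene of the set, was at 82.0, 51.2 and 65.3 CPM in Eed cKO 1, 2 and 3, against 61.6, 72.3 and 66.1 CPM in Control 1, 2 and 3. The groups overlapped, with Eed cKO libraries at both the top and the bottom of the order. Its log2 fold change was -0.01 (edgeR adjusted p 0.990), with a 95% interval of 0.740-fold to 1.33-fold, which does not include the H2-K1 estimate. With upper-quartile scaling its sign was positive. Most of the read-length sequence of both genes has no exact match in another gene. Of the 100-base windows, 0.957% in H2-K1 transcripts and 3.59% in H2-D1 transcripts also occur in other genes, mainly other class I genes. None was shared between H2-K1 and H2-D1. All annotated transcripts entered and only exact matches counted, so reads aligned with mismatches are not covered by these shares. Heavy chain genes differ in sequence between mouse strains, and the counts rest on alignment to mm10, a C57BL/6J genome.

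Taken as a share of the H2-K1 and H2-D1 counts together, H2-K1 made up 26.1% in Eed cKO 1 (exact 95% binomial interval 24.5 to 27.7), 41.7% in Eed cKO 2 (39.7 to 43.8) and 20.5% in Eed cKO 3 (18.6 to 22.5). In Control 1, 2 and 3 it made up 17.7% (16 to 19.4), 9.96% (8.81 to 11.2) and 15.7% (14.2 to 17.4). The groups did not overlap, with means of 29.4 ± 11% in Eed cKO and 14.5 ± 4.02% in Control (SD, n = 3 each). Without Eed cKO 2 the Eed cKO mean was 23.3%. The exact two-sided permutation p was 0.1, the smallest that 3 against 3 libraries allow, and 0.5 after Benjamini-Hochberg adjustment over the 5 gene pairs compared. The intervals cover counting error only, since reads of amplified RNA are not independent molecules.

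**Figure D3:**
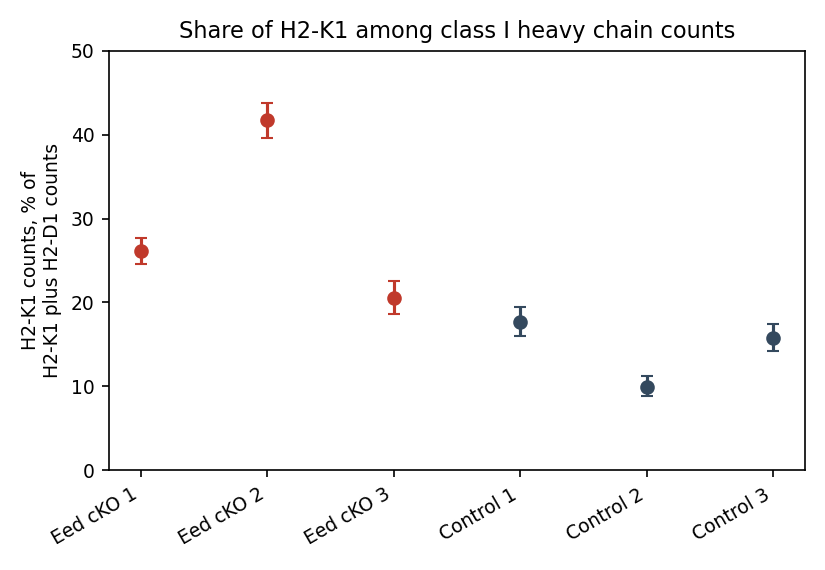
H2-K1 counts as a percentage of H2-K1 plus H2-D1 counts in each library; bars are exact 95% binomial intervals. The 3 Eed cKO libraries lie between 20.5% and 41.7%, above the 3 Control libraries at 9.96% to 17.7%.

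B2m encodes β2-microglobulin, the light chain that all class I heavy chains need to reach the cell surface. It was at 130.4, 71.9 and 79.0 CPM in Eed cKO 1, 2 and 3, against 89.7, 74.2 and 71.7 CPM in Control 1, 2 and 3. Eed cKO 1 was the highest library and the remaining Eed cKO libraries lay among the Control ones. The log2 fold change was 0.26 (edgeR adjusted p 0.689; 95% interval 0.859-fold to 1.66-fold), and -0.06 without Eed cKO 1.

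Tap1 (chromosome 17, 34187553 to 34197225) was at 30.1, 21.8 and 17.5 CPM in Eed cKO 1, 2 and 3, against 20.8, 19.2 and 14.6 CPM in Control 1, 2 and 3, with overlapping groups. Its log2 fold change was 0.35 (edgeR adjusted p 0.611; 95% interval 0.872-fold to 1.85-fold). Tap2, its partner in the transporter, was far lower in counts, with 27 to 94 per library. It was at 1.75, 3.33 and 1.31 CPM in Eed cKO 1, 2 and 3, against 3.52, 2.78 and 1.52 CPM in Control 1, 2 and 3. Those groups overlapped throughout (log2 fold change -0.29, edgeR adjusted p 0.904), and the interval of 0.333-fold to 2.0-fold is wide. In GENCODE, 698 exonic bases of Tap2 are shared with overlapping transcripts. How reads there were counted is not stated, so its level is less certain. The same holds for Tapbp (1053 shared bases) and Psmb8 (498). It also holds for genes outside the 10, such as Rfx5 (1471), Csf1r (873), Erap1 (834), H2-Q4 (496) and Psmb7 (405).

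Tapbp, which encodes tapasin, varied least between libraries of the 10 genes. It was at 27.8, 31.2 and 25.6 CPM in Eed cKO 1, 2 and 3, against 23.5, 29.8 and 30.8 CPM in Control 1, 2 and 3, and the groups overlapped fully. The log2 fold change was 0.01 (edgeR adjusted p 0.992; 95% interval 0.741-fold to 1.37-fold). Of its 100-base windows 14.8% occur in transcripts of other genes, the largest share of the 10.

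The immunoproteasome subunits Psmb8, Psmb9 and Psmb10 take the places of Psmb5, Psmb6 and Psmb7 in the proteasome of immune cells and of cells under interferon. None of the 3 passed the test. Psmb8 was at 8.45, 3.41 and 3.39 CPM in Eed cKO 1, 2 and 3, against 3.44, 3.71 and 3.71 CPM in Control 1, 2 and 3. Eed cKO 1 stood apart from 5 libraries that lay close together, and the log2 fold change of 0.49 (edgeR adjusted p 0.729) was -0.09 without it. Psmb9 was at 3.46, 0.161 and 0.678 CPM in Eed cKO 1, 2 and 3, against 0.860, 0.895 and 1.44 CPM in Control 1, 2 and 3. The Eed cKO group held both the highest and the lowest library, the lowest from 4 counts, and the log2 fold change of 0.43 (edgeR adjusted p 0.909) was -1.35 without Eed cKO 1, -0.39 in limma-voom and -0.47 with a replicate block. Psmb9 and Tap1 are transcribed away from each other, and their annotated transcripts share 212 exonic bases, so without strand a read there cannot be assigned to one of them. Psmb10 was at 3.21, 2.17 and 4.45 CPM in Eed cKO 1, 2 and 3, against 2.62, 0.959 and 1.87 CPM in Control 1, 2 and 3, with overlapping groups (log2 fold change 0.85, edgeR adjusted p 0.583; 95% interval 0.754-fold to 4.31-fold).

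As a share of the counts of each subunit with its counterpart, Psmb8 made up 19.4% to 36.9% in Eed cKO and 15.7% to 19.7% in Control. Psmb9 made up 0.412% to 7.0% in Eed cKO and 1.86% to 2.90% in Control, and Psmb10 2.98% to 7.43% in Eed cKO and 1.42% to 4.76% in Control. All 3 shares overlapped between the groups (two-sided exact permutation p 0.2, 0.8 and 0.4; 0.5, 0.8 and 0.5 after adjustment over the 5 pairs). The Tap2 share of Tap2 and Tap1 counts was 5.5% to 13.3% in Eed cKO and 9.42% to 14.5% in Control (exact permutation p 0.3, adjusted 0.5). The counterparts did not pass either: log2 fold changes were -0.34 for Psmb5, -0.23 for Psmb6 and 0.12 for Psmb7 (edgeR adjusted p 0.618, 0.677 and 0.863). The sign for Psmb7 turned negative without both libraries numbered 1.

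Nlrc5 had few counts, from 13 to 89 per library. It was at 1.35, 0.963 and 3.78 CPM in Eed cKO 1, 2 and 3, against 3.33, 0.415 and 0.508 CPM in Control 1, 2 and 3. A single library in each group was high and the rest were low. The log2 fold change was 0.51 (edgeR adjusted p 0.878; 95% interval 0.387-fold to 5.27-fold). It was 2.12 without Control 1 and -0.29 without Eed cKO 3, so the direction rested on single libraries.

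**Figure D4:**
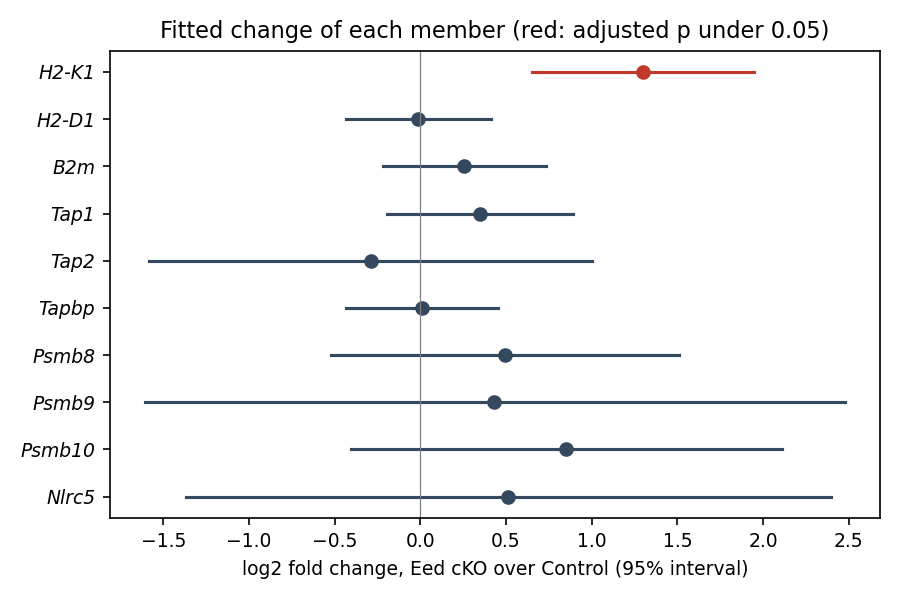
Fitted log2 fold change, Eed cKO over Control, of each of the 10 genes with its 95% interval; red marks an adjusted p under 0.05. H2-K1 at 1.30 is the only gene whose interval excludes 0, and the intervals of Psmb9, Nlrc5, Tap2 and Psmb10 are the widest.

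Levels were compared between genes per kilobase of exon, using the exon lengths of the GENCODE basic set. B2m stood highest, at 109 ± 37.1 CPM per kilobase in Eed cKO and 91.3 ± 11.3 in Control. H2-D1 followed at 31.5 ± 7.34 in Eed cKO and 31.7 ± 2.53 in Control, and in both groups its libraries overlapped neither with B2m nor with any lower gene. H2-K1 was at 16.6 ± 6.03 CPM per kilobase in Eed cKO and 6.76 ± 1.70 in Control. It thus ranked 3 of 10 in Eed cKO, where its libraries (10.2 to 22.1) overlapped with those of Tapbp (8.82 to 10.8), and 4 of 10 in Control, where its libraries (4.83 to 8.0) lay below those of Tapbp (8.09 to 10.6). Next came Tap1 (7.83 ± 2.16 in Eed cKO, 6.17 ± 1.08 in Control), Psmb8 (3.12 ± 1.79, 2.22 ± 0.0947) and Psmb10 (2.50 ± 0.873, 1.39 ± 0.634). The lowest were Psmb9 (1.06 ± 1.31 in Eed cKO, 0.789 ± 0.243 in Control), Tap2 (0.619 ± 0.309, 0.757 ± 0.293) and Nlrc5 (0.250 ± 0.188, 0.175 ± 0.204). In Eed cKO the neighbours H2-K1 and Tapbp, Tapbp and Tap1, Psmb8 and Psmb10, Psmb10 and Psmb9, Psmb9 and Tap2, and Tap2 and Nlrc5 overlapped. In Control the neighbours H2-K1 and Tap1, Psmb10 and Psmb9, and Psmb9 and Tap2 overlapped. All these errors are SD with n = 3.

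The 10 genes did not share an order of libraries. Eed cKO 1 was the highest library for 5 of them (H2-D1, B2m, Tap1, Psmb8 and Psmb9), Eed cKO 2 for H2-K1 and Tapbp, Eed cKO 3 for Psmb10 and Nlrc5, and Control 1 for Tap2. Averaged over the 10 genes, the difference from each gene's own mean was 0.42, -0.03 and 0.02 on the log2(CPM + 1) scale in Eed cKO 1, 2 and 3, against 0.05, -0.26 and -0.21 in Control 1, 2 and 3. The genes whose centred profile over the 6 libraries lay closest to this average were Tcea2, Ppcs, Tpst2, St3gal2 and Ece1, at root mean square distances of 0.064 to 0.069 on that scale. Each of the 5 had a log2 fold change between 0.25 and 0.49, and none was called. They were picked for that profile, so the sign and rough size of these changes follow from the choice.

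Leukocytes carry much class I RNA, and their transcripts differed between libraries. All 6 pan-leukocyte markers had counts in every library, and their summed level was 97.5, 19.8 and 17.5 CPM in Eed cKO 1, 2 and 3, against 129, 42.1 and 97.8 CPM in Control 1, 2 and 3. The sum of 9 Langerhans cell and MHC class II genes was 347, 60.8 and 103 CPM in Eed cKO 1, 2 and 3, against 441, 98.3 and 131 CPM in Control 1, 2 and 3. Both libraries numbered 1 were thus the highest of their group. All 6 pan-leukocyte genes and all 9 macrophage genes had negative log2 fold changes, Eed cKO over Control, as had all 8 tested Langerhans cell and class II genes. Ptprc, the pan-leukocyte phosphatase CD45, was at 10.6 ± 12.2 CPM in Eed cKO and 20.9 ± 8.12 CPM in Control (SD, n = 3 each; edgeR adjusted p 0.524). The macrophage receptor gene Csf1r was at 29.1 ± 27.3 and 55.7 ± 31.7 CPM, and the class II chaperone gene Cd74 at 93.9 ± 85.0 and 128 ± 105 CPM, in Eed cKO and in Control for each gene, and neither was called. Without Eed cKO 1, Ptprc and Csf1r were both called lower in Eed cKO (edgeR adjusted p 0.00450 and 0.0185). Cd207, the Langerhans cell lectin gene, had no count in any Eed cKO library or in Control 3. The macrophage list held 2 called genes of 9, Cx3cr1 and F13a1, both lower in Eed cKO, beside 0.816% of all tested genes called lower. Of 6 T cell markers 5 were found, and Cd3e, Cd3g, Cd3d and Cd8a each stayed under 1 CPM in every library. The fifth was Thy1, also a gene of other skin cells, at 53.3, 44.8 and 32.7 CPM in Eed cKO 1, 2 and 3, against 28.4, 28.9 and 28.5 CPM in Control 1, 2 and 3. Its groups did not overlap, with the Eed cKO libraries higher, and it was not called (log2 fold change 0.61, edgeR adjusted p 0.153). These 5 genes were named after their values were seen.

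In Eed cKO 1 the high values of H2-D1, B2m, Tap1, Psmb8 and Psmb9 came together with the high leukocyte sum, although that sum was higher still in Control 1, and the part of leukocyte RNA in those values was not tested. In sorted cells pooled in a library, fewer cells of a type and less RNA per cell cannot be told apart. H2-K1 was highest in Eed cKO 2, where that sum was 19.8 CPM, and lowest of its group in Eed cKO 3, where the sum was 17.5 CPM. Among the Control libraries H2-K1 and the sum stood in the same order, and the part of leukocyte RNA in the H2-K1 values was not tested either. Without both libraries numbered 1, a choice made after seeing the data, the H2-K1 log2 fold change was 1.40 (edgeR adjusted p 0.0523), so that 0 of the 10 genes were then called.

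**Figure D5:**
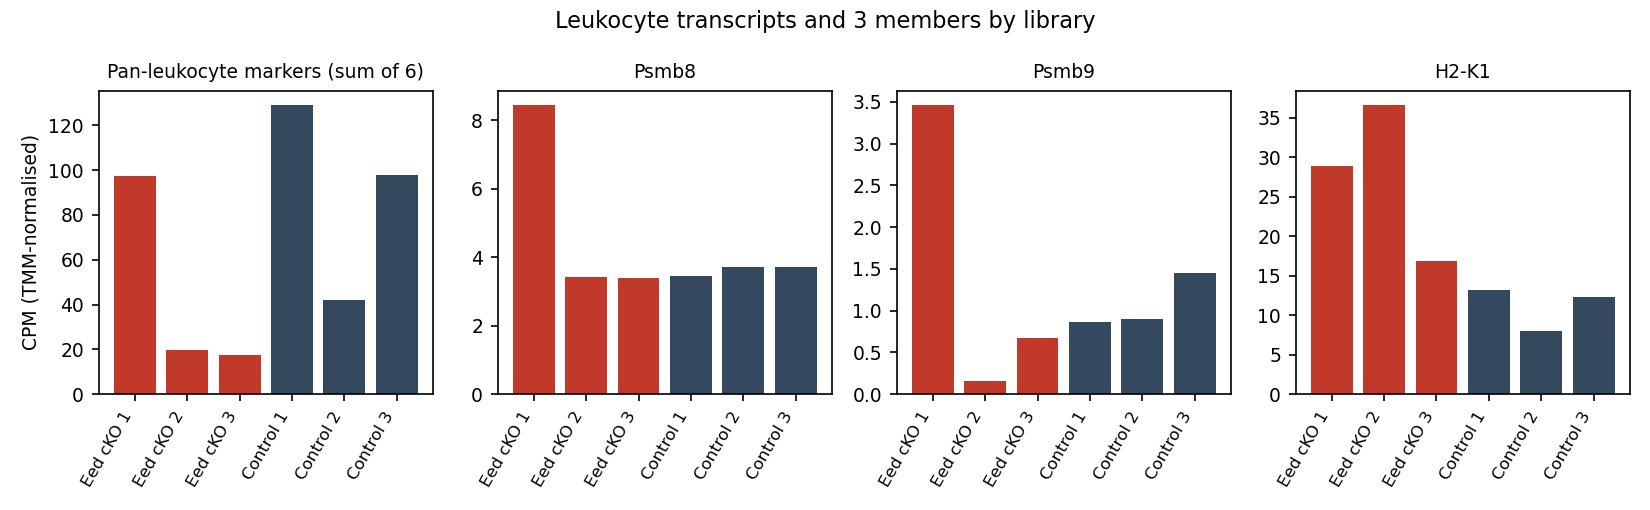
Summed CPM of 6 pan-leukocyte markers and CPM of Psmb8, Psmb9 and H2-K1 in each library, with Eed cKO in red and Control in dark blue; bars start at 0. Psmb8 and Psmb9 peak in Eed cKO 1, and H2-K1 peaks in Eed cKO 2.

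Other genes of the class I pathway gave no call. Of 47 listed genes 41 were tested, with 0 higher, 0 lower and 41 not passing in edgeR, 5 (12.2%) at an unadjusted p under 0.05, beside 14.9% of all tested genes, and 0 calls by DESeq2 or limma-voom. Their median log2 fold change was 0.02. Among the other heavy chain genes, the nonclassical H2-T23 was at 5.60 ± 2.91 CPM in Eed cKO and 4.14 ± 0.749 CPM in Control, and H2-Q4 at 3.02 ± 0.569 and 2.47 ± 1.05 CPM (SD, n = 3 each). H2-M3, which presents formylated peptides, stayed under 0.4 CPM on average in both groups (log2 fold change 0.12, edgeR adjusted p 0.982). H2-Q6 and H2-Q7, named after their values were seen, had no count in any library. Transcripts of both share 100-base windows with H2-D1. How reads that match several genes were counted is not stated, so these empty counts need not mean that the RNA was absent. H2-T10 was at 4.88, 2.45 and 2.81 CPM in Eed cKO 1, 2 and 3, against 1.5, 1.44 and 0.234 CPM in Control 1, 2 and 3. GENCODE lists H2-T10 as a polymorphic pseudogene with 925 exonic bases shared with BC023719, so its level is less certain. Mr1, which presents vitamin metabolites to innate-like T cells, was at 13.8, 13 and 21.4 CPM in Eed cKO 1, 2 and 3, against 8.04, 11.6 and 5.55 CPM in Control 1, 2 and 3. H2-T10 and Mr1, named after their values were seen, had groups that did not overlap but were not called (log2 fold changes 1.67 and 0.93, edgeR adjusted p 0.279 and 0.165). Of the 41 tested genes, 3 (H2-T10, Mr1 and Rfx5) had every Eed cKO library above every Control library, beside 11% of all tested genes. In 2, Psmb5 and Nfkb1, every Eed cKO library lay below, beside 9.22%.

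None of the chaperones of the loading complex passed the test. Calr was at 121 ± 28.9 CPM in Eed cKO and 118 ± 17.8 CPM in Control, Canx at 421 ± 108 and 319 ± 38.9 CPM, Pdia3 at 443 ± 82.9 and 353 ± 38.2 CPM, and the tapasin relative Tapbpl at 7.75 ± 2.46 and 5.10 ± 1.97 CPM (SD, n = 3 each). The 95% intervals reached 1.76-fold for Canx, 1.63-fold for Pdia3 and 2.78-fold for Tapbpl. Erap1, the peptidase that trims peptides in the endoplasmic reticulum, had a log2 fold change of 0.20, and the proteasome activator genes Psme1 and Psme2 had -0.06 and -0.11, with edgeR adjusted p between 0.750 and 0.934. Rfx5, a subunit of the factor that binds class I and class II promoters, was at 60.8, 49.7 and 48.9 CPM in Eed cKO 1, 2 and 3, against 43.7, 25.4 and 40.7 CPM in Control 1, 2 and 3. Its groups did not overlap, and it was not called (log2 fold change 0.54, edgeR adjusted p 0.265). The interferon-responsive factor Irf1 was at 4.34, 7.02 and 2.71 CPM in Eed cKO 1, 2 and 3, against 17.4, 4.63 and 8.98 CPM in Control 1, 2 and 3 (log2 fold change -1.14, edgeR adjusted p 0.279). Without Control 1 its log2 fold change was -0.54 (edgeR adjusted p 0.719).

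Interferon signalling genes were read beside the class I genes, since interferon raises them. Of 42 listed genes 39 were tested, and edgeR called 0 higher and 0 lower, with 7 (17.9%) at an unadjusted p under 0.05, beside 14.9% of all tested genes. DESeq2 called 3 higher (7.69%, beside 5.2% of all genes) and 0 lower, and limma-voom none. The median log2 fold change was 0.02. Irf9, a transcription factor of interferon signalling, was at 18.9 ± 0.982 CPM in Eed cKO and 17.9 ± 3.41 CPM in Control (SD, n = 3 each). The interferon gamma receptor genes Ifngr1 and Ifngr2 were at 50.8 ± 6.43 and 38.3 ± 16.9 CPM in Eed cKO, against 58.9 ± 8.19 and 36.1 ± 1.67 CPM in Control, and Ifit3 averaged under 1 CPM in both groups. In 4 of the 39 genes every Eed cKO library lay above every Control library, beside 11% of all tested genes. In 2, Ifnar2 and Tyk2, every Eed cKO library lay below, beside 9.22%. Of the 7 genes at an unadjusted p under 0.05, 5 had positive and 2 negative log2 fold changes. The negative ones were Cxcl9 (-3.32) and Ifnar2 (-0.52). The 3 genes that DESeq2 called were Isg15, Cxcl10 and Trim25, named, like Cxcl9, Ifnar2 and Tyk2, after their values were seen. Trim25, a ubiquitin ligase of antiviral signalling, was at 151, 173 and 145 CPM in Eed cKO 1, 2 and 3, against 120, 84.8 and 112 CPM in Control 1, 2 and 3 (edgeR adjusted p 0.0987, DESeq2 adjusted p 0.0325). Cxcl10, a T cell chemokine, was at 13.4, 20.5 and 9.44 CPM in Eed cKO 1, 2 and 3, against 8.49, 4.79 and 7.30 CPM in Control 1, 2 and 3 (edgeR adjusted p 0.119, DESeq2 adjusted p 0.0418). Isg15, a ubiquitin-like interferon product, reached 4.58 CPM in Eed cKO 2 and stayed under 0.6 CPM in every other library. Without Eed cKO 2, a setting added for DESeq2 after seeing the data, none of the 3 was called: the DESeq2 adjusted p was 0.853 for Isg15, 0.440 for Cxcl10 and 0.212 for Trim25.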

How the data were processed

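RNA from sorted newborn epidermal cells was amplified and sequenced as single reads of 100 bases, per the labels. Each library has a deposited table of unnormalized counts for every gene symbol (all whole; totals differ by library). Per the submitters' processing notes, which assign no roles, the build was mm10. The tools named there are HTSeq 0.6.1, TopHat2 2.0.13, DESeq2 1.6.3 and Cufflinks 2.2.1. No source used here states the strand setting or annotation, so overlapping genes have uncertain counts.

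The test was edgeR 4.0.16 in R 4.3.3 (filterByExpr on the group, TMM, quasi-likelihood F-test on genotype alone, Benjamini-Hochberg over 14700 genes, threshold 0.05). SE is the unshrunk log2 fold change over the root of F, and intervals use the fit's degrees of freedom. DESeq2 1.42.0, limma 3.58.1 (voom), other scalings and filters, a model blocked on replicate number, thinning to the smallest library and single-library omissions were alternatives; leaving out both libraries numbered 1, and DESeq2, the H2-K1 share and the library order without Eed cKO 2, were added after seeing the data. The pipeline was tested on simulated data. Coordinates and lengths are from GENCODE M21 on GRCm38, which mm10 names, and promoters from RefSeq. Figures used matplotlib 3.10.9.

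The rule for named genes took all 10 genes, every called gene and 20 preset genes of the pathway and interferon lists, Eed, 8 preset markers and the 5 genes nearest in profile; any other gene in the text was picked with its values in view. The result of 1 preset gene is not reported here. Genes and lists were chosen with earlier results of these data known.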

Additional observations from a re-analysis of the deposited data

How the results depend on the processing

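The H2-K1 log2 fold change was positive in all 16 alternatives (1.04 to 1.55), and it was called in 11 of them. Leaving out 1 library at a time gave 0 to 1 genes of the 10 called higher, and leaving out both libraries numbered 1 gave 0. The interferon list had 3 genes higher in DESeq2, and 1 higher and 1 lower with no filter on low counts. Over all genes, 499 higher and 120 lower calls stood beside 764 and 270 in DESeq2, 737 and 257 with no filter, and 302 to 456 and 35 to 118 with 1 library left out; the lowest higher counts were 302 without Eed cKO 3 and 323 without Control 3.

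With the replicate number as a block, H2-K1 was at 1.26 on the log2 scale (edgeR adjusted p 0.0110), 1 of the 10 genes was higher and 0 lower, and over all genes 675 were higher and 269 lower. Same-numbered libraries correlated at 0.292, 0.110 and 0.0227 in their deviations from group means, and differently numbered ones at -0.209 to 0.119. The highest value was that of the libraries numbered 1. These correlations do not settle whether the numbers pair libraries. The main fit used no block because the labels do not say that a number marks shared animals, litters or days.

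Several uncalled genes changed sign. With upper-quartile scaling H2-D1 was at 0.0083. In limma-voom and with the block, Psmb9 was at -0.39 and -0.47 and H2-M3 at -0.30 and -0.0796. Krt5 was at 0.0013 with RLE scaling, 0.0114 with upper-quartile scaling, 0.0017 with the filter of 1 CPM in 3 libraries, 0.0014 in DESeq2 and 0.0057 without Rn45s. Without both libraries numbered 1, Tap2 was at 0.11, Tapbp at -0.0896, Psmb8 at -0.12, Psmb9 at -1.48, Psmb7 at -0.0269, Ifngr2 at -0.29 and Ly6a at -0.32.

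With 1 library left out, log2 fold changes ran from -0.20 to 0.15 for H2-D1, -0.0591 to 0.42 for B2m, -0.11 to 0.0779 for Tapbp, -0.0912 to 0.72 for Psmb8, -1.35 to 0.97 for Psmb9, -0.29 to 2.12 for Nlrc5, -0.16 to 0.18 for Calr, -0.17 to 0.0436 for Psme1, -0.17 to 0.0099 for Psme2, -1.06 to 0.75 for H2-M3, -0.33 to 0.30 for Ifngr2, -0.0403 to 0.22 for Irf9, -1.47 to 0.46 for Cd74, -0.10 to 0.12 for Krt5, -0.27 to 0.0340 for Krt14 and -0.10 to 0.45 for Ly6a. The cause of these changes was not tested. Depth limits Psmb9, Nlrc5, Tap2 and Psmb10 most, each with under 100 counts in every library.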

Other observations

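The 6 libraries stood in 1 order for H2-K1, with Eed cKO 2 highest, then Eed cKO 1, Eed cKO 3, Control 1, Control 3 and Control 2. That order was shared by 39 of the other 14699 tested genes (0.265%). Of the 80 tested genes of the companion and interferon lists 2 shared it, and these were Cxcl10 and Trim25. The order was looked at after the values were seen, and the 39 genes all have groups that do not overlap by construction. Without Eed cKO 2 the order of the other 5 libraries was shared by 245 of the 14699 genes (1.67%).

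Of the surface proteins used in the sort, the gene for EpCAM rose and those for Sca1 and α6-integrin did not pass. Epcam was at 120, 151 and 148 CPM in Eed cKO 1, 2 and 3, against 64.5, 104 and 77.4 CPM in Control 1, 2 and 3 (log2 fold change 0.77, edgeR adjusted p 0.0433). The call was lost without Eed cKO 2, Eed cKO 3, Control 1 or Control 3 (edgeR adjusted p up to 0.171) and without both libraries numbered 1 (0.0583). Ly6a, which encodes Sca1 and which interferon also raises, was at 74.5, 43.4 and 48.8 CPM in Eed cKO 1, 2 and 3, against 33.4, 66.3 and 48.7 CPM in Control 1, 2 and 3, with overlapping groups (log2 fold change 0.17, edgeR adjusted p 0.863). Itga6, which encodes α6-integrin, was at 1177 ± 90.5 CPM in Eed cKO and 1036 ± 86.8 CPM in Control (SD, n = 3 each; log2 fold change 0.18, edgeR adjusted p 0.667).

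Markers of other skin cells were also present. The sum of 5 fibroblast genes ran from 564 to 645 CPM in Eed cKO and from 380 to 576 CPM in Control. The sum of 4 endothelial genes was 31.6, 4.13 and 7.55 CPM in Eed cKO 1, 2 and 3, against 26.3, 4.60 and 34.0 CPM in Control 1, 2 and 3. Melanocyte genes summed to 7.29 to 11.8 CPM in Eed cKO and to 5.27 to 21.1 CPM in Control. Rn45s, the ribosomal precursor transcript, took 6.78% to 7.26% of counts in Eed cKO libraries and 2.18% to 5.24% in Control libraries, and the H2-K1 log2 fold change was 1.31 without that row.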
